A study of Mus musculus with 12 samples.

Results

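High-fat feeding was compared with normal feeding in mouse aorta, the elastic artery that leaves the heart. The genes described are the 1672 of 3534 in the deposited table that reached at least 1 FPKM (a read level divided by gene length and by library size) in at least 2 of the 5 distinct libraries of these groups. HFD libraries came from mice of WT genotype on a diet with 60% of its energy as fat for 12 weeks, given to induce type 2 diabetes per the labels. WT libraries came from mice of the same genotype on a standard diet, so the names HFD and WT stand for a difference in diet and not in genotype. The files deposited as HFD replicates 1 and 2 hold identical values and were counted as 1 library, called the shared HFD library below, which leaves 2 HFD and 3 WT libraries. Age, sex and whether replicates came from separate mice are not given in the labels, so p-values measure only the spread between these samples, which may be technical. That spread was estimated over all 11 distinct libraries of the series, which include the further high-fat groups HAPN and HSAPN described below. Below, HFD values come in the order of the shared library, then replicate 3, and WT values in the order of replicates 1, 2 and 3.

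The wall of the aorta holds contractile smooth muscle, an inner sheet of endothelial cells and an outer adventitia with fibroblasts, nerve endings and surrounding fat. Fatty acids that enter these cells activate the peroxisome proliferator-activated receptors (PPARs), nuclear receptors that switch on genes of fat storage and fat burning. A whole-tissue sample also holds the blood left in the vessel, with its red cells, platelets and antibody-producing cells. In such bulk samples, fewer cells of a type and less RNA per cell cannot be told apart.

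The libraries held 15966800 to 17863500 reads as estimated from the values, and 12.6 to 17.6% of them fell on genes of the deposited files. Contractile markers of the aortic wall were present in every library, Acta2 (smooth muscle actin) at 466 and 146 FPKM in HFD, against 354, 1607 and 421 FPKM in WT. Pearson r of log2(FPKM + 1) over the 1672 genes was 0.844 between the 2 HFD libraries, 0.892 to 0.936 among WT libraries and 0.822 to 0.943 between the groups. The highest of these, 0.943, was between the shared HFD library and WT replicate 3, so the libraries did not fall apart by diet. HFD replicate 3 stood apart in short and structural RNAs, named here after their values were seen. Gm23935, annotated as a microRNA, was listed at 2330 and 110585 FPKM in HFD, against 6904, 3248 and 8577 FPKM in WT, and the ribosomal RNA model CT010467.1 at 104 and 2904 FPKM in HFD, against 110, 106 and 178 FPKM in WT. The part of these RNAs in the results below was not tested.

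A single gene passed the test across all genes, an antibody segment described next. That is 0.0598% of the genes (limma, Benjamini-Hochberg adjusted p under 0.05), with 195 genes at an unadjusted p under 0.05, or 11.7% (7.18% higher and 4.49% lower in HFD). In 314 genes, 18.8%, the groups did not overlap: both HFD libraries were above all WT libraries in 188 (11.2%) and below all of them in 126 (7.54%). The log2 difference, here and below HFD minus WT on the log2(FPKM + 1) scale, was above 0 in 952 genes, 56.9%, and below 0 in 720, 43.1%, with a median of 0.06. A gene that reached 1 FPKM only in HFD had to differ, and 23 genes did so, against 56 that reached it only in WT. The cut fell between Map2k6, whose second-highest value was 1.004 FPKM, and Syngr3 at 0.999 FPKM.

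**Figure D1:**
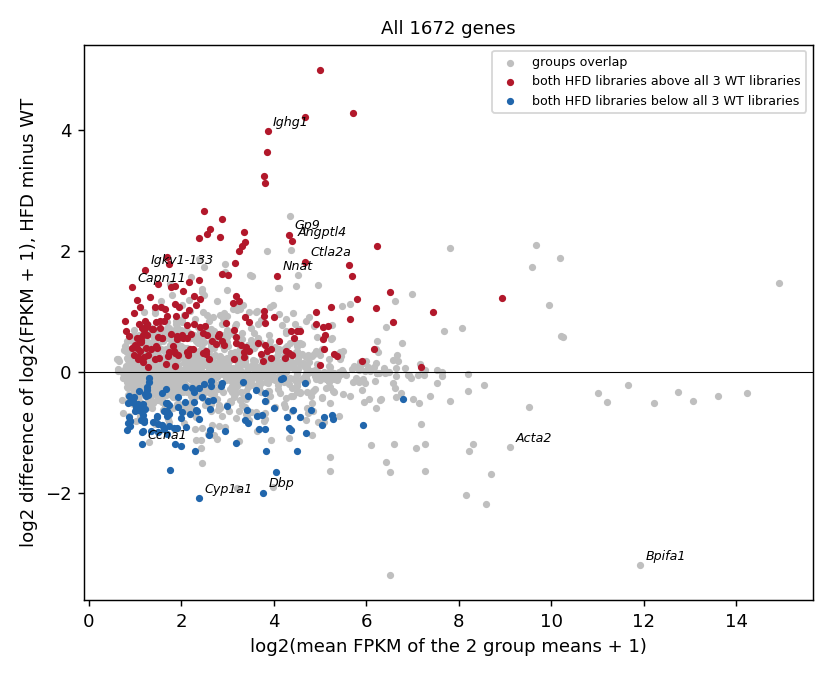
Each point is 1 of the 1672 genes, with the log2 of its mean level over both groups on the x axis and the log2 difference, HFD minus WT, on the y axis. Red and blue points are the 188 and 126 genes whose HFD libraries lie above or below all WT libraries; Igkv1-133 is the single gene past the threshold.

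The gene past the threshold was Igkv1-133, a variable segment of the antibody kappa light chain on chromosome 6 (chr6:67724902-67725661, plus strand, GRCm38). It stood at 2.35 and 2.73 FPKM in HFD, against 0, 0 and 0.315 FPKM in WT, which is 14 and 17 recovered reads in HFD, against 0, 0 and 2 in WT. Its log2 difference was 1.69 (SE 0.195, limma adjusted p = 0.0136, higher in 2 of 2 HFD libraries than in any WT library). It passed the filter through the HFD libraries alone, so it had to differ, and with at least 1 FPKM required in 3 libraries it was not tested. Reads of such segments can be shared between near-identical copies, so the count of a single segment is uncertain.

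Antibody segments as a class, chosen by annotation after the data were seen, stood higher in HFD in 34 of 36 tested, against 56.9% of all genes. The groups did not overlap in 16 of them, all higher in HFD, against 11.2% of all genes, and 6 of the 36 passed the filter through HFD alone. Ighg1, the constant region of immunoglobulin G1, was 5.68 and 48.5 FPKM in HFD, against 0, 0.108 and 0.386 FPKM in WT. Ighv1-19, a heavy chain variable segment, was 110 and 13.4 FPKM in HFD, against 0, 0.138 and 0.726 FPKM in WT. Different segments led in the 2 HFD libraries: Igkv14-111 was 23.6 and 177 FPKM in HFD, against 0.155, 3.50 and 6.71 FPKM in WT, while Igkv6-17 was 71.7 and 2.07 FPKM in HFD, against 0.303, 1.78 and 3.28 FPKM in WT, where HFD replicate 3 lay inside the WT range. Summed over the 48 segments of the table, levels were 693 and 436 FPKM in HFD, against 3.98, 114 and 120 FPKM in WT. The class median log2 difference of 1.78 was 0.66 without the shared HFD library. In that setting 22 of the 36 segments were above 0 and 14 below, and the median of all genes was -0.14. The other B and plasma cell markers of the fixed list, such as Cd79a and Jchain, were not analysed here, so the number of such cells cannot be read from these values.

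Next to it, the smallest adjusted p (limma) was 0.106, shared by Ctla2a, Nnat and Ccna1, and no gene named from here on passed the threshold. Ctla2a encodes a small inhibitor of cathepsin-type cysteine proteases. Its level was 35.5 and 41.6 FPKM in HFD, against 9.08, 7.16 and 15.8 FPKM in WT, so that the lowest HFD library was above the highest WT library (log2 difference 1.82, SE 0.319). In the annotation it shares 343 exonic bases with the overlapping model Gm49391, and its relative Ctla2b was below the filter. Nnat, an imprinted gene for neuronatin, a small membrane protein of nerve and fat cells, was 31.0 and 17.9 FPKM in HFD, against 6.69, 5.50 and 9.81 FPKM in WT (log2 difference 1.59, SE 0.281). Prg2, the eosinophil granule major basic protein gene, was 2.63 and 5.74 FPKM in HFD, against 0.341, 0.534 and 0.421 FPKM in WT, and it passed the filter through HFD alone (log2 difference 1.79, SE 0.369). Arxes2, an adipocyte gene of the endoplasmic reticulum with a near-identical neighbour, was 17.2 and 8.20 FPKM in HFD, against 1.46, 2.08 and 5.84 FPKM in WT. Capn11, a calpain protease gene picked after its values were seen, was 1.88 and 1.69 FPKM in HFD, against 0.0211, 0.145 and 0 FPKM in WT, and it too passed through HFD alone. In these genes both HFD libraries were above every WT library, which follows from how the genes were picked. WT replicate 3 was the WT library nearest to HFD in Ctla2a, Nnat and Arxes2.

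**Figure D2:**
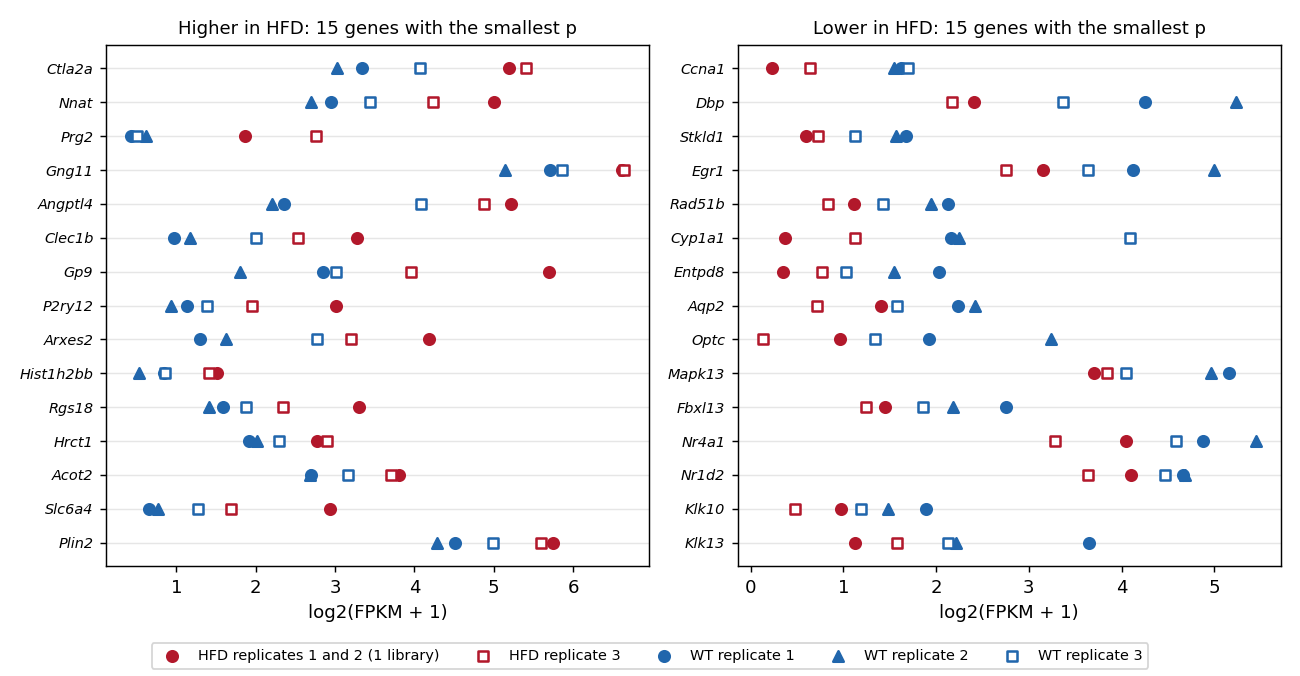
Level of each gene in each library as log2(FPKM + 1), for the 15 genes higher and the 15 lower in HFD with the smallest p among those whose groups do not overlap and whose mean log2 level is at least 1. Red symbols are the HFD libraries and blue symbols the WT libraries; Igkv1-133 is left out because antibody segments were not eligible, none of the genes shown passed the threshold, and Prg2 and Hist1h2bb reached 1 FPKM in HFD alone, as Ccna1, Stkld1, Entpd8, Optc and Klk10 did in WT alone.

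Angptl4, Plin2 and Acot2, which handle fatty acids, were among the 15 genes higher in HFD with the smallest p. Angptl4 encodes a secreted inhibitor of lipoprotein lipase and is a textbook PPAR target. It was 36.3 and 28.3 FPKM in HFD, against 4.14, 3.59 and 16.02 FPKM in WT (log2 difference 2.17, SE 0.484, limma adjusted p = 0.252). Plin2, which coats lipid droplets, was 52.6 and 47.3 FPKM in HFD, against 21.8, 18.4 and 30.9 FPKM in WT (log2 difference 1.07, SE 0.294). Acot2, a mitochondrial thioesterase that frees fatty acids from coenzyme A and has close paralogs, was 13.03 and 12.05 FPKM in HFD, against 5.49, 5.42 and 7.93 FPKM in WT (log2 difference 0.91, SE 0.244). The groups did not overlap in any of the 3 genes, as the choice of these genes required. In each gene the HFD libraries were closer together than the WT libraries. Slc25a20, the carnitine-acylcarnitine carrier of mitochondria, was 12.7 and 9.72 FPKM in HFD, against 7.75, 7.71 and 8.68 FPKM in WT, also without overlap.

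Of 15 tested PPAR targets, 12 had a log2 difference above 0, against 56.9% of all genes, and 5 were higher in HFD without overlap, against 11.2% (median log2 difference 0.42, against 0.06 over all genes). That median was -0.08 without the shared HFD library and 0.77 without HFD replicate 3. The shared HFD library also had the highest sum of white fat markers, as given below, and its part in these medians was not tested. Pdk4, the kinase that turns off pyruvate oxidation, was 59.8 and 7.59 FPKM in HFD, against 3.58, 5.96 and 18.3 FPKM in WT, so HFD replicate 3 lay inside the WT range. Fatty acid activation and oxidation enzymes, which share 9 genes with the PPAR targets, were above 0 in 14 of 20, with 4 higher and 0 lower without overlap, against 56.9%, 11.2% and 7.54% of all genes (median 0.24; -0.15 without the shared HFD library, 0.61 without HFD replicate 3, and 0.13 without WT replicate 1). Ech1, an enoyl-CoA isomerase, was 97.4 and 65.7 FPKM in HFD, against 55.8, 64.8 and 62.8 FPKM in WT. Acadl, the long-chain acyl-CoA dehydrogenase, overlapped at 137 and 85.7 FPKM in HFD, against 89.4, 93.2 and 85.0 FPKM in WT, as did most of the list.

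Among 8 tested genes of lipid uptake, 7 had a log2 difference above 0, against 56.9% of all genes. Only Angptl4 did not overlap, against 11.2% of all genes higher in HFD without overlap. The list median was 0.58. It was 0.31 and 0.93 without the shared HFD library or HFD replicate 3, and 0.16 and 1.11 without WT replicate 1 or 3. Gpihbp1, which carries lipoprotein lipase across capillary endothelium, was 28.9 and 56.2 FPKM in HFD, against 8.19, 9.83 and 34.2 FPKM in WT. Lpl, the lipase itself, was 69.6 and 7.40 FPKM in HFD, against 5.24, 15.2 and 20.5 FPKM in WT, with HFD replicate 3 inside the WT range. Apoe, an apolipoprotein made by macrophages and fat, was 395 and 242 FPKM in HFD, against 93.4, 188 and 362 FPKM in WT. Genes of fatty acid synthesis showed no common direction: Fasn, the fatty acid synthase, was 22.1 and 10.4 FPKM in HFD, against 5.88, 8.13 and 58.5 FPKM in WT. Of the glucose transporters, Slc2a1 (GLUT1) was 13.2 and 10.3 FPKM in HFD, against 20.2, 21.5 and 13.4 FPKM in WT, without overlap by a narrow margin. Slc2a4 (GLUT4, the insulin-responsive carrier of muscle and fat) was 13.1 and 0.484 FPKM in HFD, against 4.17, 17.2 and 9.67 FPKM in WT.

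**Figure D3:**
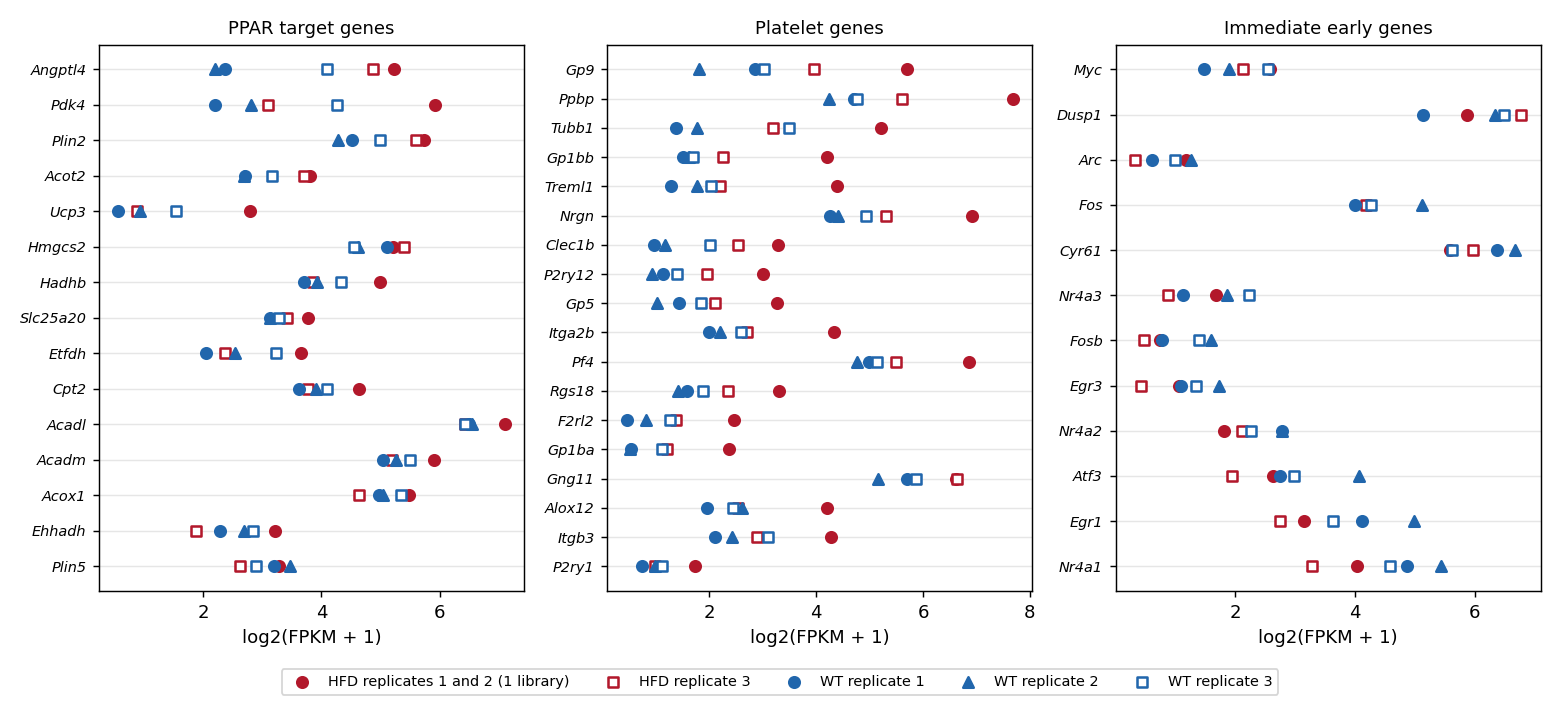
Level in each library as log2(FPKM + 1) of the 15 tested PPAR target genes, 18 of the 19 tested platelet genes and the 12 tested immediate early genes, each list ordered by its log2 difference. The groups do not overlap in 5, 14 and 6 genes of these lists, higher in HFD in the first and second list and lower in the third.

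Platelet genes stood higher in HFD in all 19 tested (56.9% of all genes had a difference above 0). In 14 of them the groups did not overlap, against 11.2% of all genes, and 16 had an unadjusted limma p under 0.05, against 7.18% of all genes in that direction. Pf4 (platelet factor 4) and Ppbp are chemokines stored in platelet granules. Pf4 was 116 and 44.0 FPKM in HFD, against 30.9, 26.1 and 34.2 FPKM in WT, and Ppbp was 204 and 47.5 FPKM in HFD, against 24.9, 17.8 and 26.2 FPKM in WT. The shared HFD library was thus far above the rest, and HFD replicate 3 was nearer to the WT libraries. Gp9, a subunit of the receptor for von Willebrand factor, was 51.0 and 14.5 FPKM in HFD, against 6.23, 2.48 and 7.08 FPKM in WT (log2 difference 2.27, SE 0.545, limma adjusted p = 0.263). Clec1b, the platelet receptor CLEC-2, was 8.70 and 4.76 FPKM in HFD, against 0.952, 1.25 and 3.01 FPKM in WT, and P2ry12, the ADP receptor that clopidogrel blocks, was 7.04 and 2.88 FPKM in HFD, against 1.19, 0.901 and 1.62 FPKM in WT. In the annotation, Clec1b shares 184 exonic bases with Clec9a on the same strand.

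Gng11, a G protein subunit found in platelets and endothelium, differed from these in its even HFD values of 96.9 and 98.9 FPKM, against 51.2, 34.4 and 57.0 FPKM in WT. Rgs18, a regulator of G protein signalling in platelets, was 8.88 and 4.09 FPKM in HFD, against 2.00, 1.65 and 2.66 FPKM in WT. Slc6a4, the serotonin transporter through which platelets load serotonin, was not on the list and was 6.65 and 2.22 FPKM in HFD, against 0.567, 0.704 and 1.42 FPKM in WT. The groups overlapped in 5 list genes, among them Itgb3, an integrin of platelets and of other cells, which was 18.3 and 6.38 FPKM in HFD, against 3.29, 4.37 and 7.54 FPKM in WT. The list median was 1.25, and 0.65 without the shared HFD library. Without that library the difference still lay above 0 in 19 of 19 genes.

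The start regions of 3 platelet genes that stood higher together are printed here, 250 bases before to 50 after the RefSeq start on GRCm38.p6. Capitals mark AGGAAG, a core that ETS-family factors bind, found on either strand (its reverse complement reads as CTTCCT). Pf4 lies at chr5:90772185-90772484 on the plus strand and Gp9 at chr6:87777820-87778119 on the plus strand. Itga2b, the platelet integrin alpha subunit, picked after its values were seen, lies at chr11:102469834-102470133 on the minus strand.
Pf4: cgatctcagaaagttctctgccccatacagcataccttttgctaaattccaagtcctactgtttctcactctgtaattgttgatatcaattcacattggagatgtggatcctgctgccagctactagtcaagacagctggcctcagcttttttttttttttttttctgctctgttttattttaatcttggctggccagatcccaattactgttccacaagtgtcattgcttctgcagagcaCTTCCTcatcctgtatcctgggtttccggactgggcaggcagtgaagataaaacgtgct
Gp9: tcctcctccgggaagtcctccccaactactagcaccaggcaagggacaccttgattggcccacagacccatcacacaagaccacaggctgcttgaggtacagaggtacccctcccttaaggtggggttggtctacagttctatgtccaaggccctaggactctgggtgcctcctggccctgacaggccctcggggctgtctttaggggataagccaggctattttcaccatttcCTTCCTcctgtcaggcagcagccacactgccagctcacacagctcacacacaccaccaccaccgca
Itga2b: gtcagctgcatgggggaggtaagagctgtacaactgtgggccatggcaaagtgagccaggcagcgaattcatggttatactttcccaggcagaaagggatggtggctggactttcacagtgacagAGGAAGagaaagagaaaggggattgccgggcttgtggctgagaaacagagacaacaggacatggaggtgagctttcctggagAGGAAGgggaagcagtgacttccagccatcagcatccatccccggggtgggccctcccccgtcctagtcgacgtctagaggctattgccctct
The Pf4 and Gp9 regions hold 1 match each, at bases 242 and 235 from the 5′ end and so just before the start, and the Itga2b region holds 2. Of the 15 platelet genes with a region in the table, 9 hold the motif, against 35.4% of all 32851 regions. The match is a description of the letters and not a measured site.

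Red cell genes were above 0 in all 8 tested, against 56.9% of all genes, with a median of 1.61. Only Ube2l6, an enzyme that conjugates ubiquitin-like proteins, did not overlap, against 11.2% of all genes higher in HFD without overlap. The beta-globin gene Hbb-bs was 2055 and 1221 FPKM in HFD, against 224, 212 and 1658 FPKM in WT, so WT replicate 3 lay between the HFD libraries. Hba-a1 (alpha globin) was 1356 and 713 FPKM in HFD, against 137, 153 and 1198 FPKM in WT, with the same order. Globin genes have near-identical copies, so the split of reads among them is uncertain. The list median was 0.77 without the shared HFD library and 2.44 without WT replicate 3.

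Summed levels of the platelet list were 766 and 296 FPKM in HFD, against 154, 129 and 202 FPKM in WT, and those of the red cell list 3926 and 2253 FPKM in HFD, against 445, 445 and 3266 FPKM in WT. Platelet genes therefore kept the groups apart where red cell genes did not. No member of either list was at 0 in all 5 libraries, and the part that residual blood has in the other results was not tested.

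Genes of the immediate early response stood lower in HFD in 10 of 12 (43.1% of all genes had a difference below 0), with 6 lower and 0 higher without overlap, against 7.54% of all genes (median log2 difference -0.56, between -0.70 and -0.42 with any library left out). These genes are switched on within minutes of a stimulus and encode transcription factors of short life. Egr1, a zinc finger factor induced by stretch and injury of the vessel wall, was 7.88 and 5.73 FPKM in HFD, against 16.4, 30.9 and 11.4 FPKM in WT (log2 difference -1.30, SE 0.365, limma adjusted p = 0.291). Nr4a1, an orphan nuclear receptor, was 15.5 and 8.70 FPKM in HFD, against 28.3, 42.6 and 23.1 FPKM in WT (log2 difference -1.31, SE 0.418, limma adjusted p = 0.291). Its relative Nr4a2 was 2.52 and 3.33 FPKM in HFD, against 5.93, 5.88 and 3.83 FPKM in WT, and Atf3, a stress-induced factor, was 5.195 and 2.875 FPKM in HFD, against 5.73, 15.8 and 6.94 FPKM in WT. Fosb and Egr3 were the other members without overlap; Fosb, Egr3, Nr4a2 and Atf3 are named after their values were seen. WT replicate 2 had the highest value of Egr1, Nr4a1, Atf3, Fosb and Egr3.

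Not every member moved this way. Fos was 17.7 and 17.3 FPKM in HFD, against 15.1, 33.95 and 18.4 FPKM in WT, inside the WT range. Dusp1, a phosphatase that shuts off MAP kinases, was 57.8 and 109 FPKM in HFD, against 34.3, 80.4 and 89.4 FPKM in WT, and stood above 0 as did Myc. The time of day at which tissue was taken and how long it was handled are not given in the labels, and their part was not tested.

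Start regions of the receptor genes Nr4a1 and Nr4a2, which stood lower together, are printed with TGACG in capitals, the short form of the cyclic AMP response element, found on either strand (its reverse complement reads as CGTCA). Nr4a1 lies at chr15:101266596-101266895 on the plus strand and Nr4a2 at chr2:57123954-57124253 on the minus strand of GRCm38.p6.
Nr4a1: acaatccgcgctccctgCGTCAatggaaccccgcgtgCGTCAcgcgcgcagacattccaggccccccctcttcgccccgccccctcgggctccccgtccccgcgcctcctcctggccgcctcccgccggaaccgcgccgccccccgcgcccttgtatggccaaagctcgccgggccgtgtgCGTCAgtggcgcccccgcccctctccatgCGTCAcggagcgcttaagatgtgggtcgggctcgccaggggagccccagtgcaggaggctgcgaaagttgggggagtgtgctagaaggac
Nr4a2: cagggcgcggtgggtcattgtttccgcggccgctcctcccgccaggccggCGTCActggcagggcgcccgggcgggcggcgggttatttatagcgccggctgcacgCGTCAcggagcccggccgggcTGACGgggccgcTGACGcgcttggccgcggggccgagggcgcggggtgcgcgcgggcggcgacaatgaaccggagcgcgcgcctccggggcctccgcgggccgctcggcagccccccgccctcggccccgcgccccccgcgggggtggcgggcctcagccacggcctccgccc
Each region holds 4 matches. All 7 immediate early genes with a region in the table hold at least 1, against 20.8% of all regions of that length. The other 5 members had no region to search. The full element was in 1 of the 7, against 1.79% of all regions. The short form was also in 5 of 13 PPAR target regions and 2 of 4 clock gene regions, but in 0 of 15 platelet regions. It and the platelet motif are part of a wider search of motifs and lists. There, the motifs named E-box and D-box were in 0 of 4 clock gene regions, and direct repeat 1 in 0 of 13 PPAR target regions.

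Of 4 tested clock genes, 3 stood below 0 and 2 were lower in HFD without overlap, against 43.1% and 7.54% of all genes. Dbp, a transcription factor driven directly by the circadian clock, was 4.33 and 3.50 FPKM in HFD, against 18.1, 36.7 and 9.30 FPKM in WT (log2 difference -1.99, SE 0.471, limma adjusted p = 0.263). Nr1d2, the clock repressor REV-ERB beta, was 16.1 and 11.5 FPKM in HFD, against 24.4, 24.7 and 21.1 FPKM in WT (log2 difference -0.74, SE 0.237). Neither gene overlapped between the groups, and Hlf, which acts like Dbp, was lower but overlapped. Nfil3, a factor that competes with Dbp for the same sites, went the other way at 8.81 and 5.37 FPKM in HFD, against 3.72, 3.81 and 5.83 FPKM in WT. With 4 tested members the list says nothing of the core oscillator, whose other genes were not analysed here. In the annotation, Dbp shares 539 exonic bases with Sphk2 on the opposite strand.

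Of 5 tested vasoactive genes, 3 had a log2 difference above 0 and 2 below, against 56.9% and 43.1% of all genes. Without overlap, 1 was higher and 1 lower, against 11.2% and 7.54% of all genes. Edn1, the precursor of the vasoconstrictor endothelin 1, was 10.2 and 20.5 FPKM in HFD, against 1.52, 3.63 and 10.3 FPKM in WT. Agtr1a, the angiotensin II type 1 receptor, was 4.33 and 4.92 FPKM in HFD, against 2.56, 2.11 and 3.27 FPKM in WT, without overlap. Ddah1, an enzyme that clears an inhibitor of nitric oxide synthase, was 5.07 and 7.34 FPKM in HFD, against 1.88, 1.64 and 5.11 FPKM in WT. Ptgs2, the inducible cyclooxygenase, was lower at 3.60 and 3.90 FPKM in HFD, against 4.64, 5.12 and 4.37 FPKM in WT. Aqp1, a water channel of endothelium, was 152 and 178 FPKM in HFD, against 24.6, 76.3 and 159 FPKM in WT. Of the 32 endothelial markers fixed, 5 were tested. All 5 stood above 0, against 56.9% of all genes, and 0 were free of overlap, against 18.8%. Their median was 0.85, and it was 0.40 without WT replicate 1 and 1.43 without WT replicate 3. The defining endothelial markers Pecam1 and Cdh5 were not analysed here, so endothelial content cannot be read from this list. Gpx3, the secreted glutathione peroxidase, was 611 and 740 FPKM in HFD, against 196, 256 and 470 FPKM in WT, without overlap.

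Slc6a2, the noradrenaline transporter of sympathetic endings, was 9.33 and 17.6 FPKM in HFD, against 1.02, 1.21 and 8.36 FPKM in WT. Stmn2, a growth-associated protein of axons, was 11.4 and 12.8 FPKM in HFD, against 3.96, 3.61 and 7.56 FPKM in WT, and Gap43, another growth-cone gene named after its values were seen, was 9.41 and 10.4 FPKM in HFD, against 6.12, 4.37 and 6.95 FPKM in WT. These genes and Nnat were the 4 of 13 tested neural genes that did not overlap, all higher in HFD, against 11.2% of all genes. S100b, a glial and fat cell gene, was 5.46 and 1.09 FPKM in HFD, against 6.24, 9.53 and 4.44 FPKM in WT, so the groups overlapped. The list median of 0.43 was -0.52 without the shared HFD library, 1.09 without HFD replicate 3 and 0.24 without WT replicate 1. Gal, a neuropeptide gene picked after its values were seen, was 1.77 and 1.94 FPKM in HFD, against 0.160, 0.0785 and 0.578 FPKM in WT, and passed the filter through HFD alone.

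Immune genes other than antibody segments mostly overlapped. Ccl6, a chemokine of macrophages, was 97.3 and 49.2 FPKM in HFD, against 18.6, 9.503 and 42.1 FPKM in WT. It was the single gene without overlap among 10 tested chemokines and adhesion genes, against 11.2% of all genes higher in HFD without overlap. Of these 10 genes, 9 stood above 0, against 56.9% of all genes. Their median was 0.58, and it was 0.33 without WT replicate 1 and 1.19 without WT replicate 3. Il33, the alarmin of adventitial and endothelial cells, was 18.2 and 17.2 FPKM in HFD, against 4.36, 4.36 and 23.2 FPKM in WT, where WT replicate 3 was above both HFD libraries. All 8 tested interferon response genes stood above 0, against 56.9% of all genes. Their median was 0.50, and it was 0.31 without WT replicate 1 and 0.75 without WT replicate 3. Only 1 of them was free of overlap, against 11.2% of all genes higher in HFD. It was Igtp, a GTPase induced by interferon gamma, at 16.4 and 17.1 FPKM in HFD, against 5.51, 7.47 and 13.7 FPKM in WT. Macrophage genes stood above 0 in 5 of 5, against 56.9% of all genes, with 0 free of overlap, against 18.8%. Their median of 0.67 was 0.01 without the shared HFD library, 1.33 without HFD replicate 3 and 0.43 without WT replicate 1. Adgre1, which encodes the macrophage antigen F4/80, was 14.4 and 3.32 FPKM in HFD, against 1.67, 2.08 and 4.75 FPKM in WT. In T and NK cells, Nkg7 was 7.22 and 9.93 FPKM in HFD, against 1.62, 2.57 and 17.8 FPKM in WT. Retnla, made by macrophages under type 2 cytokines, went against Prg2 at 130 and 200 FPKM in HFD, against 1197, 195 and 593 FPKM in WT.

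Contractile smooth muscle genes stood lower in HFD in 12 of 14, against 43.1% of all genes, but 0 of 14 were free of overlap, against 18.8%. The median depended on single libraries. It was -1.04 with all libraries, -1.98 without the shared HFD library, -0.07 without HFD replicate 3 and -0.46 without WT replicate 2. Myh11, the smooth muscle myosin heavy chain, was 77.2 and 15.6 FPKM in HFD, against 54.5, 236 and 77.7 FPKM in WT. Tpm2, a tropomyosin, was 59.5 and 16.8 FPKM in HFD, against 77.0, 302 and 45.9 FPKM in WT. The summed list was 1286 and 382 FPKM in HFD, against 1054, 4126 and 1073 FPKM in WT, so HFD replicate 3 was lowest and WT replicate 2 highest, and the other libraries lay within a narrow band. WT replicate 2 was also the highest in airway genes and HFD replicate 3 the lowest, as given below, and the part of other tissue in the contractile values was not tested.

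Log2 differences of fibroblast markers ran from -0.65 to 0.59, and those of the tested matrix genes from -1.62 to 1.60. Fibroblast markers were below 0 in 10 of 13, against 43.1% of all genes. Without overlap, 1 was higher and 2 were lower, against 11.2% and 7.54% of all genes. Their median was -0.18. It was -0.66 and 0.34 without the shared HFD library or HFD replicate 3, -0.30 without WT replicate 1 and -0.02 without WT replicate 2. Clec3b, the plasminogen-binding protein tetranectin, was 104 and 82.3 FPKM in HFD, against 143, 136 and 105 FPKM in WT, and Col14a1, a fibril-associated collagen, was 5.18 and 2.74 FPKM in HFD, against 5.59, 6.53 and 6.87 FPKM in WT. Dcn, for the collagen-binding proteoglycan decorin, overlapped at 76.4 and 33.96 FPKM in HFD, against 61.9, 62.1 and 64.1 FPKM in WT. Fn1, the fibronectin gene, was 63.0 and 8.02 FPKM in HFD, against 2.56, 7.64 and 15.1 FPKM in WT. Among proteases, Mmp3 (stromelysin 1) was higher at 17.1 and 22.7 FPKM in HFD, against 11.1, 6.71 and 13.3 FPKM in WT, and Ctsk, the collagen-cutting cathepsin K, was lower at 19.2 and 22.6 FPKM in HFD, against 36.9, 35.9 and 26.7 FPKM in WT. Neither of these proteases overlapped between the groups. Optc, for the proteoglycan opticin, was 0.952 and 0.0934 FPKM in HFD, against 2.80, 8.41 and 1.53 FPKM in WT, and passed the filter through WT alone.

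**Figure D4:**
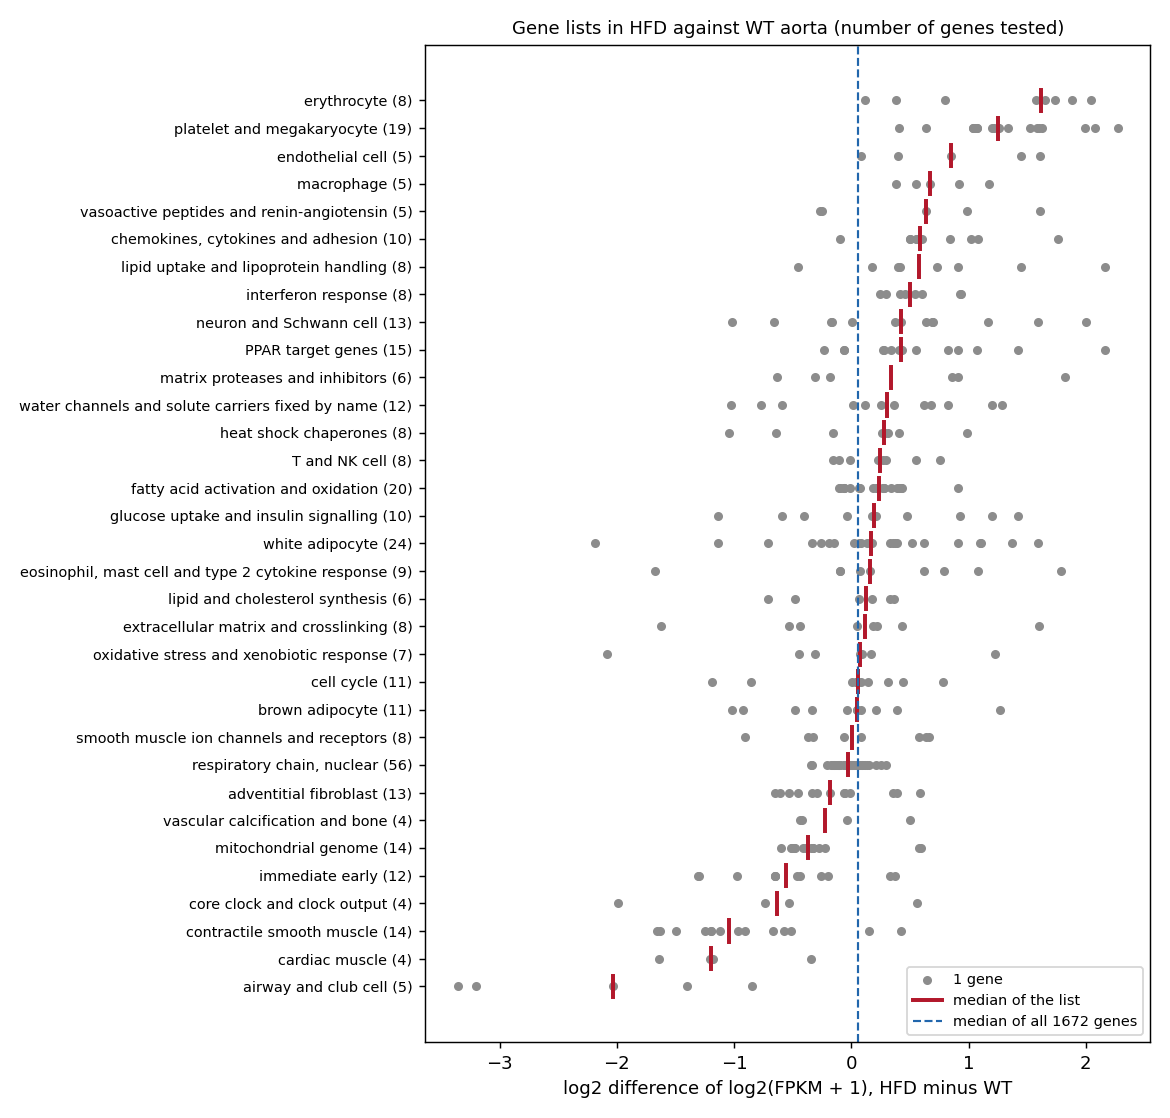
Log2 difference, HFD minus WT, of every tested gene in the 33 lists with at least 4 tested genes, 1 point per gene, with the list median as a red bar and the median of all 1672 genes, 0.06, as a dashed line. Lists run from the highest median, red cell genes at 1.61, to the lowest, airway genes at -2.03.

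Levels of marker genes of fat, heart and airway differed widely within both groups. Adipoq, the adiponectin gene of fat cells, was 92.6 and 0.174 FPKM in HFD, against 2.44, 9.44 and 53.8 FPKM in WT. Summed white fat markers were 1761 and 183 FPKM in HFD, against 246, 482 and 1211 FPKM in WT, so the highest and the lowest library were both HFD. Their list median of 0.17 was -0.54 and 1.42 without the shared HFD library or HFD replicate 3, and -0.10 and 0.73 without WT replicate 1 or 3. Cdh13, which encodes the adiponectin-binding T-cadherin, was 5.43 and 1.73 FPKM in HFD, against 1.26, 3.62 and 4.45 FPKM in WT. The brown fat gene Cox8b was 105 and 4.51 FPKM in HFD, against 3.81, 42.6 and 42.5 FPKM in WT, and the shared HFD library was highest again in the heart marker Tnnt2 (cardiac troponin T) at 64.6 and 0.752 FPKM in HFD, against 11.8, 63.6 and 44.0 FPKM in WT. The 5 airway genes summed to 6902 and 12.0 FPKM in HFD, against 344, 12018 and 3149 FPKM in WT, led by the secretory gene Bpifa1. Their medians of -2.03 for airway and -1.19 for heart were 0.87 and 1.55 without HFD replicate 3, -4.94 and -3.87 without the shared HFD library, -3.33 and -2.09 without WT replicate 1, and -0.87 and -0.63 without WT replicate 2. The heart median was also -0.76 without WT replicate 3. No marker of these lists was at 0 in all 5 libraries, and their part in the differences between the groups was not tested.

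**Figure D5:**
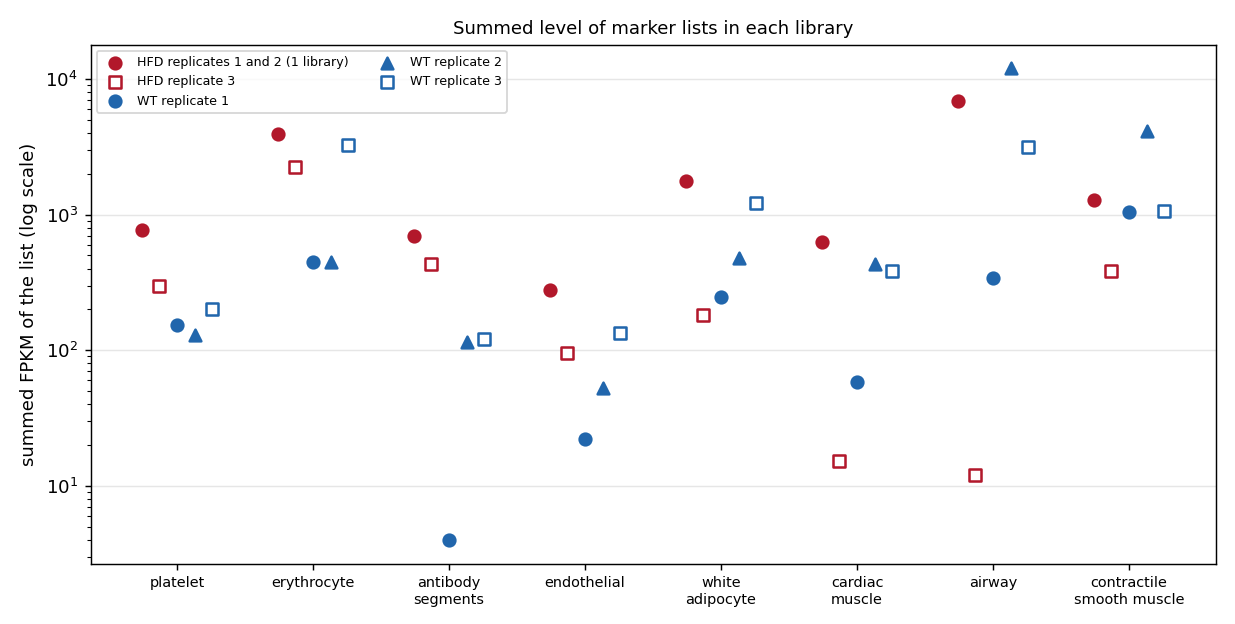
Summed FPKM of 8 marker lists in each library on a log scale, with HFD libraries in red and WT libraries in blue. The platelet and antibody sums are higher in both HFD libraries than in every WT library, while the other sums overlap between the groups.

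Of 56 nuclear genes of the respiratory chain, 18 stood above 0 and 38 below, against 56.9% and 43.1% of all genes, with a median of -0.02. Without overlap, 1 was higher and 1 lower, against 11.2% and 7.54% of all genes. The median turned to 0.09 without HFD replicate 3 and 0.07 without WT replicate 2. It was -0.18 without the shared HFD library, with 46 of 56 below 0 and 27 lower without overlap. In that setting 600 of all 1672 genes were lower without overlap, and the median of all genes was -0.14. The list median was -0.10 without WT replicate 1 and -0.07 without WT replicate 3. Cox8a, a subunit of cytochrome c oxidase, was 328 and 357 FPKM in HFD, against 428, 443 and 326 FPKM in WT, and Atp5b, of the ATP synthase, was 218 and 89.2 FPKM in HFD, against 96.4, 178 and 173 FPKM in WT. Of 14 transcripts of the mitochondrial genome, 12 stood below 0, against 43.1% of all genes, and 0 were free of overlap, against 18.8%. Their median was -0.37. It was -0.56 without the shared HFD library, -0.07 without WT replicate 1, and -0.72 without WT replicate 3. mt-Co1, a catalytic subunit of cytochrome c oxidase, was 19101 and 14488 FPKM in HFD, against 28407, 18344 and 18192 FPKM in WT, with WT replicate 1 far above the other libraries. The ribosomal RNA mt-Rnr2 stood above 0 at 1595 and 1287 FPKM in HFD, against 1510, 839 and 693 FPKM in WT.

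Of 8 tested heat shock chaperones, 2 were higher and 2 lower without overlap, against 11.2% and 7.54% of all genes. Hspb1, the small heat shock protein of smooth muscle, was higher at 246 and 205 FPKM in HFD, against 87.5, 197 and 83.9 FPKM in WT. Hspa1b, the inducible HSP70, was lower at 3.36 and 2.49 FPKM in HFD, against 5.22, 8.06 and 8.29 FPKM in WT, and shares near-identical sequence with Hspa1a.

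Several single genes outside these groups were lower in HFD. Ccna1, the cyclin of germ cells, was 0.171 and 0.557 FPKM in HFD, against 2.09, 1.92 and 2.24 FPKM in WT, where the 3 WT libraries lay closer together than in most genes (log2 difference -1.19, SE 0.196, limma adjusted p = 0.106). It passed the filter through WT alone, and 185 of its exonic bases are shared with an antisense model. Mapk13, the p38 delta kinase, was 12.0 and 13.4 FPKM in HFD, against 34.6, 30.2 and 15.5 FPKM in WT. Cyp1a1, the enzyme induced through the aryl hydrocarbon receptor, was 0.293 and 1.19 FPKM in HFD, against 3.46, 3.73 and 16.1 FPKM in WT (log2 difference -2.08, SE 0.643, limma adjusted p = 0.291). Rad51b, of DNA repair by recombination, was 1.17 and 0.784 FPKM in HFD, against 3.38, 2.84 and 1.69 FPKM in WT. Klk13, a kallikrein protease of epithelia, was 1.18 and 1.99 FPKM in HFD, against 11.6, 3.65 and 3.35 FPKM in WT. Its relative Klk10 was 0.962 and 0.394 FPKM in HFD, against 2.71, 1.79 and 1.29 FPKM in WT, and passed the filter through WT alone. Aqp2, known as the water channel of the kidney collecting duct, was 1.64 and 0.637 FPKM in HFD, against 3.71, 4.34 and 1.99 FPKM in WT.

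Further groups of the series, HAPN and HSAPN, were fed the high-fat diet as well. HAPN mice were treated, unlike those of HFD, and HSAPN had a knockdown of APPL1. The treatment is not reported here, and comparisons of these groups with WT share the WT libraries. Means ± SD over 3 libraries each are set beside HFD (n = 2) and WT (n = 3) as values. Nnat was 24.4 ± 9.28 FPKM in HFD, 6.38 ± 0.611 in HAPN and 10.9 ± 1.59 in HSAPN, against 7.33 ± 2.22 FPKM in WT, and the HAPN mean lay below that of WT. Arxes2 was 12.7 ± 6.36 FPKM in HFD, 3.44 ± 1.07 in HAPN and 4.84 ± 0.258 in HSAPN, against 3.12 ± 2.37 FPKM in WT. Plin2 was 49.97 ± 3.77 FPKM in HFD, 44.8 ± 12.7 in HAPN and 40.7 ± 7.70 in HSAPN, against 23.7 ± 6.45 FPKM in WT, and P2ry12 was 4.96 ± 2.94 FPKM in HFD, 2.40 ± 0.643 in HAPN and 2.85 ± 0.609 in HSAPN, against 1.24 ± 0.361 FPKM in WT. Dbp was 3.91 ± 0.588 FPKM in HFD, 2.85 ± 0.817 in HAPN and 11.6 ± 3.38 in HSAPN, against 21.4 ± 14.0 FPKM in WT. Igkv1-133 was 2.54 ± 0.268 FPKM in HFD, 0.435 ± 0.117 in HAPN and 0.313 ± 0.166 in HSAPN, against 0.105 ± 0.182 FPKM in WT. Dbp had its highest mean in WT, and Nnat, Arxes2, Plin2, P2ry12 and Igkv1-133 had theirs in HFD. All were named for their difference between HFD and WT, which favours such an order. In Ccna1 and Clec1b the HAPN and HSAPN means lay near that of HFD. In Angptl4, Ctla2a and Acot2 they lay between those of HFD and WT. Ccna1 was 0.364 ± 0.273 FPKM in HFD, 0.419 ± 0.220 in HAPN and 0.390 ± 0.0971 in HSAPN, against 2.08 ± 0.162 FPKM in WT. Clec1b was 6.73 ± 2.785 FPKM in HFD, 5.17 ± 1.06 in HAPN and 5.67 ± 1.05 in HSAPN, against 1.74 ± 1.11 FPKM in WT.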

How the data were processed

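RNA of mouse aorta was extracted with TRIzol and sequenced from a directional NEB library, per the labels' protocols. The authors deposited 1 FPKM value per gene symbol and sample, for 3534 rows, chosen by a rule that the sources used here do not state. The submitters' processing notes list GRCm38, DESeq 1.8.3 and featureCounts 1.5.0-p3 without saying what either tool did. Aligner and strand setting: not given in the sources used here. Without a stated strand setting, reads of overlapping genes cannot be told apart.

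The unit was checked by multiplying values by exonic lengths of GENCODE M21 and dividing by the worth of 1 read on 1 kb. That worth was chosen for each library so that most low values were whole reads. Of values up to 20 reads, 96.1 to 97.2% came out as whole reads within 0.1. In HFD and WT libraries, 1 read on 1 kb is worth 0.0560 to 0.0626 FPKM. A symbol listed more than 1 time, Dlg2, was left out, 4 symbols turned into dates were not named, and 1638 of the 1672 genes matched the annotation. SEs of log2 differences were taken from the limma fit below, so they reflect the spread between libraries.

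Genes were tested with limma-trend (limma 3.58.1, R 4.3.3) on log2(FPKM + 1), pseudocount 1, in 1 fit of 4 group means over the 11 distinct libraries with 7 residual degrees of freedom. HFD was set against WT with Benjamini-Hochberg adjustment over 1672 genes at 0.05. The test was checked on simulated data. Python 3.11.15 with NumPy 2.4.6 and pandas 2.3.3 made the tables, and matplotlib 3.10.9 the figures.

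Of 37 gene lists, 33 had at least 4 tested genes, and lists are described by counts and medians with no test. The members and lists were chosen with earlier results of these data known. Named genes are, of those with a mean log2 level of at least 1 and groups that do not overlap, the 15 higher and the 15 lower of smallest p, since fewer than 10 passed, without unnamed models, pseudogenes and receptor or antibody segments. From each list come the 4 highest and the 2 with the smallest p, and Adipoq, Cdh13, Acta2, Myh11, Ctla2a, Ctla2b and Angptl4 were named in any case. Outside the rule, the antibody segments, Capn11, Gal, Gap43, Itga2b, Nr4a2, Fosb, Egr3, Atf3, Myc, Itgb3, Gm23935 and CT010467.1 were named after their values were seen, and not every gene of the rule or of a list is described or drawn; some are not reported here. Promoter sequences are those of RefSeq (GRCm38.p6).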

Additional observations from a re-analysis of the deposited data

How the results depend on the processing

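The count of genes past the threshold, 1, was small enough that most settings moved it. It was 2 with no filter on low values and 0 where 1 FPKM was required in 3 libraries or 5 FPKM in 2, since Igkv1-133 was then not tested (165 and 82 genes at an unadjusted limma p under 0.05). It was also 0 with a pseudocount of 0.1 (192 unadjusted), with limma on the 5 libraries alone (87) and with limma-voom on recovered reads (201), and 6 with the identical files counted as 2 libraries. It stayed at 1 with a pseudocount of 0.5, median-ratio scaling and robust empirical Bayes. Igkv1-133 kept its direction in every setting that tested it, with a limma adjusted p of 0.155 at a pseudocount of 0.1, 0.608 with the 5 libraries alone and 0.187 with limma-voom (range over its alternatives 0.00133 to 0.608). Leaving out 1 library gave 0 to 49 genes: 2 without the shared HFD library, 21 without HFD replicate 3, among them 9 platelet genes such as Gp9 and Pf4, 0 without WT replicate 1 (Igkv1-133 at 0.0755; 124 unadjusted), 2 without WT replicate 2 and 49 without WT replicate 3, among them Angptl4, Ctla2a, Dbp, Egr1, Hba-a1, Slc6a2 and Gpihbp1. With 1 HFD library left, that library is assumed to vary like the other groups. The cause of these shifts was not tested.

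Genes whose groups do not overlap numbered 660 with no filter and 140 at 5 FPKM, where more or fewer genes were counted, and 385 to 1019 with a library left out, where fewer libraries have to separate. Lists with a median above 0 were 25 of 34 and ranged from 12 without the shared HFD library to 30 without HFD replicate 3, with 15 without WT replicate 1. The 31 genes named with a log2 difference or on the plot of smallest p were chosen for groups that do not overlap, so that leaving out a library could not turn their direction; of their 507 values under the alternatives, 20 were newly past the threshold and 5 no longer past it. The median of all genes, 0.06, was 0.22 with limma-voom and ran from -0.14 to 0.29 with a library left out.

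With the replicate number as a block, 0 genes passed when the shared library was given number 1 (157 unadjusted; Igkv1-133 at 0.0583) and 2 when it was given number 2. Deviations of same-numbered HFD and WT libraries correlated at -0.602 for number 1 and -0.29 for number 3, and at 0.369 where the shared library was taken as number 2. With 2 HFD libraries, the deviation of each is the mirror image of the other. These correlations therefore cannot decide whether the numbers pair the samples, and the numbers were not taken to do so. FPKM at 1 rests on few reads for short genes, so small differences of low genes were not detectable at this depth.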
